A study of Arabidopsis thaliana with 4 samples.

Results

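The genes described here are 8 clock-associated loci of Arabidopsis thaliana, out of 33557 in the deposited tables: LNK1 (AT5G64170), LNK2 (AT3G54500), LNK3 (AT3G12320), LNK4 (AT5G06980), CCR1 (AT4G39260, also GRP8), CCR2 (AT2G21660, also GRP7), COR27 (AT5G42900) and COR28 (AT4G33980). They were selected on their FPKM values (fragments per kilobase of transcript, scaled to the mapped fragments of a library) in the mutants and in wild type, that is, on the same comparisons that are given below. Their differences are therefore a description and support nothing by themselves. RNA came from whole seedlings, 14 days old, of the mutant lines hdp3-2 and asil1-2, with 2 libraries each, and both were set against the wild-type strain Col-0, which the labels also give as the plants' background. HDP3 is a transposase of Harbinger origin that the plant has taken into use, and ASIL1 is a DNA-binding factor of the trihelix family. Each mutant is represented by 1 allele, and the labels do not describe the lesions. The plants were raised at 22 °C in days of 16 h light and nights of 8 h, on medium with sucrose at 2%. The wild-type libraries belong to another series, and neither their growth conditions nor the hour of harvest of any genotype is given in the sources used here. Since these transcripts change through the day, genotype and any difference in harvest time cannot be told apart.

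The plant clock is a set of transcription factors that repress and activate each other in sequence from dawn to night. LNK proteins are coactivators without a DNA-binding domain of their own. They are carried to promoters by REVEILLE factors such as RVE8, which bind the evening element, and they help to switch on genes of the afternoon and evening. The LNK genes themselves are induced by light and expressed early in the day. CCR1 and CCR2 encode glycine-rich RNA-binding proteins under clock and cold control, of which CCR2 limits its own expression through alternative splicing. COR27 and COR28 encode small proteins induced by cold and by blue light, expressed late in the day, which feed back on clock genes and on freezing tolerance.

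The sequences before CCR1 and CCR2 are shown because they hold the evening element core, and that before LNK3 because it does not. Each is the 250 bases before the outermost gene start in the RefSeq annotation of TAIR10.1, on the gene's own strand. They lie at chr4:18275217-18275466 and chr2:9266558-9266807 on the minus strand and at chr3:3923265-3923514 on the plus strand. Capitals mark matches on either strand to the evening element core AAATATCT or to the G-box CACGTG, a site of light-regulated and clock-regulated factors.
CCR1: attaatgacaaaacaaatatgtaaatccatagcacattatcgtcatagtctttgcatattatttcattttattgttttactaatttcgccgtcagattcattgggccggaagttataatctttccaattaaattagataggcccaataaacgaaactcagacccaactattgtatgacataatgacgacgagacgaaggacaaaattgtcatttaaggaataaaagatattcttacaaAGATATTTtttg
CCR2: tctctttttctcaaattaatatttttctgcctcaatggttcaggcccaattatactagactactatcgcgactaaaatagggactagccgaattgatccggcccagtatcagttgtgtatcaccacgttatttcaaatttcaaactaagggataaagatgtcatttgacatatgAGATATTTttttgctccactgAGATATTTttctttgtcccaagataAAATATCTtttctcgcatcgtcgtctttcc
LNK3: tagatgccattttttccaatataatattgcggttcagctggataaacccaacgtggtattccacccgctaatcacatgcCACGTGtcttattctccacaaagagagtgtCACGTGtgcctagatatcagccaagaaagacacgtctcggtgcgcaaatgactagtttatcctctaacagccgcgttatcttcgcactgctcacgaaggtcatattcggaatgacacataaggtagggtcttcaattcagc

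Matches were counted in windows from 250 bases before to 50 bases after the gene start, for 7 of the 8 genes, all but COR27. The start given in the tables was used, and then the outermost RefSeq start, which lies 43 to 348 bases farther out in these 7 genes. The tables' windows therefore hold transcribed sequence by that annotation, and that of LNK4 lies wholly inside the gene. The evening element core occurred in the windows of CCR1, CCR2 and COR28, 3 of the 7 genes, with either start, and in 5.26% and 5.71% of the 26686 windows of protein-coding genes. CCR2 held 4 matches in the tables' window, of which 3 lie before the outermost RefSeq start, as does the 1 of CCR1. The match of COR28 lies after that start. No LNK window held this string. The G-box occurred in 6 of the 7 windows, in all but that of CCR1, with the tables' start, and in 4 with the RefSeq start (LNK1, LNK2, LNK3 and CCR2), against 8.13% and 7.78% of all windows. CCGAC, the core of the cold-response element (CRT/DRE), was present in LNK3, LNK4, CCR2 and COR28 with the tables' start and in LNK3 and LNK4 with the RefSeq start, against 16.5% and 15.0% of all windows. With the tables' start, the site bound by CCA1, AAAAATCT, was in none of the 7 windows and in 7.70% of all. GTGATT, a GT-box bound by ASIL1, was likewise in 0 of the 7 and in 18.4% of all, and the heat shock element core GAANNTTC in 0 and in 12.2%. With the RefSeq start AAAAATCT was in 1 (COR28), GTGATT in 1 (LNK3) and GAANNTTC in 0. A match is a string of letters and not a shown binding site, and a missing string says nothing of binding outside the window. The strings were searched on both strands, and none of the matches shown overlapped another.

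**Figure D1:**
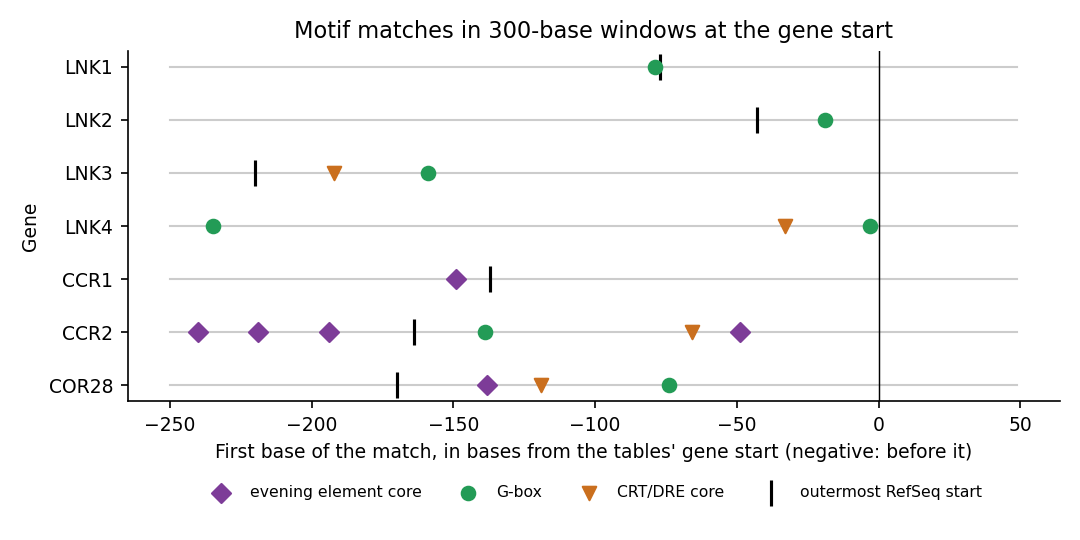
Matches to the evening element core (diamonds), the G-box (circles) and the CRT/DRE core (triangles) in windows of 7 genes. The horizontal axis is the first base of each match in bases from the gene start in the tables, grey lines are the windows, and black bars mark the outermost RefSeq start where it lies in the window. Evening element cores lie in the CCR1, CCR2 and COR28 windows, and 3 of the 4 in CCR2 lie before the black bar.

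Before the levels, the samples were checked against their labels. ASIL1 (AT1G54060) stood at 4.16 FPKM in asil1-2 against 22.9 FPKM for Col-0 (q = 0.00165 in the authors' deposited table). In hdp3-2 it was at 27.8 FPKM against 22.5 FPKM (q = 0.598). The level of HDP3 itself was not taken, so the hdp3-2 label was not checked by its own gene. Leaf marker genes were abundant in every genotype, between 4907 and 11044 FPKM over 4 genes, and 4 root markers ranged from 1.78 to 43.7 FPKM. All 4 root markers had positive log2 fold changes in asil1-2 (median 0.50), and NRT2.1 (AT1G08090) was called higher there, at 17.0 FPKM against 5.97 FPKM. In hdp3-2 the root markers had a median of 0.31 and 0 were called. Their part in the values below was not tested. The 2 seed and 2 flower markers lay at or under 2.1 FPKM, and the seed gene SESA1 was listed at 0 in wild type. Summed over all genes, the hdp3-2 column came to 4.47e+06 FPKM and its wild-type column to 1.46e+06 FPKM, while in the other table asil1-2 summed to 1.40e+06 FPKM and wild type to 1.48e+06 FPKM. The part of this gap in the values below was not tested. The tables hold 1 value per genotype, combined by the authors over libraries, so no value per library can be shown and the sequencing depth is unknown. The wild-type columns of both tables are proportional to each other, with a median ratio of 0.982 and 99.97% of 23185 genes within 0.1% of it. A gene is called where the authors' Cuffdiff q, adjusted over all genes tested in that table, was under 0.05. Log2 fold changes are mutant over wild type, and their standard error (SE) was derived from the authors' statistic. How that statistic weighs the spread among libraries is not given, so the errors are no direct measure of that spread. The labels do not say whether libraries came from separately grown plants, so any variation among them can be technical. In whole seedlings, fewer cells that express a gene and less RNA per cell cannot be told apart.

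LNK3 was lower in both mutants and LNK1 and LNK2 were called lower in asil1-2, while CCR2 and COR28 were higher in both and COR27 in hdp3-2. In hdp3-2, 1 of the 8 genes was called lower (LNK3) and 3 were called higher (CCR2, COR27 and COR28). Over all 20177 genes tested there, 1.78% were called lower and 1.3% higher. In asil1-2, 3 were called lower (LNK1, LNK2 and LNK3) and 2 higher (CCR2 and COR28), where 5.72% and 2.71% of 20205 tested genes were called. All 8 genes were tested in both tables. Because the genes were chosen on these comparisons, nothing is read from the gap between these counts and the background. The median log2 fold change of the 8 was 0.19 in hdp3-2 and -0.36 in asil1-2, beside -0.06 and -0.08 over all tested genes, and it joins genes that moved in opposite directions. In the same order, the 4 LNK genes had medians of -0.43 and -0.91, and the 2 COR genes 2.00 and 1.48.

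**Figure D2:**
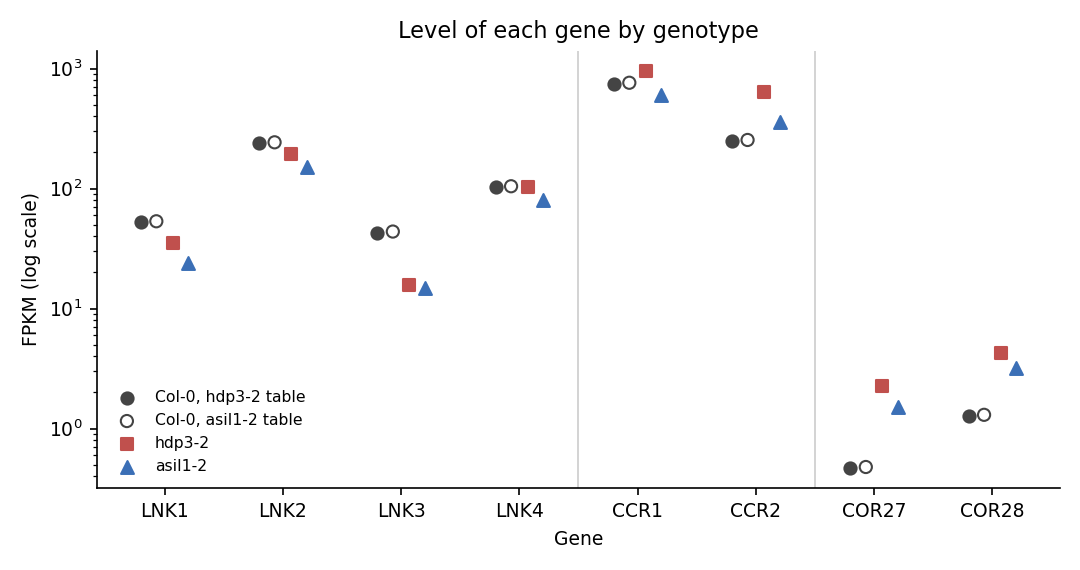
FPKM on a logarithmic vertical axis for each of the 8 genes in wild type (Col-0, 1 value from each table), hdp3-2 and asil1-2. Each point is the authors' value for a genotype, without error bars because no values per library are held. The mutants lie under wild type for LNK3, and above it for CCR2, COR27 and COR28.

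LNK3 had the lowest level relative to wild type in this family. The deposited values of LNK3 were 43.0 FPKM for Col-0 against 15.6 FPKM for hdp3-2, and in the second comparison 43.8 FPKM against 14.7 FPKM for asil1-2. The mutants thus held 36.3% and 33.6% of the wild-type level. The log2 fold change was -1.46 ± 0.29 (SE) in hdp3-2 (q = 0.00374 in the authors' deposited table) and -1.57 ± 0.26 in asil1-2 (q = 0.00165). Only 156 of 20132 tested genes with a fold change had a lower value than LNK3 in hdp3-2, and 126 of 20172 in asil1-2. LNK3 lies on chromosome 3 from 3923735 to 3925465 in TAIR10, on the plus strand, and has 5 to 6 exons in its 3 annotated transcripts.

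LNK4, a shorter LNK gene like LNK3, was not called in either mutant. In hdp3-2 it stood at 104.0 FPKM against 102.7 FPKM in wild type, and in asil1-2 at 80.9 FPKM against 104.6 FPKM. The log2 fold changes were 0.02 ± 0.28 (q = 0.989) and -0.37 ± 0.24 (q = 0.181). The authors' unadjusted Cuffdiff p was 0.922 in hdp3-2 and 0.029 in asil1-2. The coding sequences of LNK3 and LNK4 are 76.1% identical over their aligned bases, with at most 24 identical bases in a row. No stretch of 50 bases is shared. The read length is not given in the sources used here. LNK4 lies on chromosome 5 from 2167468 to 2169391 on the plus strand.

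LNK1 and LNK2, the longer coactivators of the family, were called lower in asil1-2 and not in hdp3-2. LNK1 stood at 24.0 FPKM in asil1-2 against 53.4 FPKM, a log2 fold change of -1.15 ± 0.24 (q = 0.00165). In hdp3-2 the value was 35.2 FPKM against 52.4 FPKM, and -0.57 ± 0.28 on the log2 scale with an authors' q of 0.0940, the uncalled member nearest to the threshold in that table. LNK2, the most abundant LNK transcript, fell from 243.1 to 151.9 FPKM in asil1-2 (-0.68 ± 0.25, q = 0.00422). This call was lost when the authors' statistic was read as a standard normal value and adjusted anew, and under a 2-fold minimum. In hdp3-2 it was at 195.5 FPKM against 238.6 FPKM (-0.29 ± 0.30, q = 0.665). A call in one table and not in the other does not show that the mutants differ, and their difference is given below. LNK1 lies on chromosome 5 from 25672466 to 25676746, on the minus strand. Its end overlaps the neighbour AT5G64160, on the other strand, by 245 bases. In the reference annotation LNK2 spans 20175370 to 20179070 on chromosome 3, on the minus strand. It overlaps AT3G54490 on the other strand by 93 bases, and a noncoding RNA gene, AT3G08405, lies within it. The tables give LNK2 and AT3G54490 one common span. In wild type AT3G54490 was listed at 0.159 FPKM and AT5G64160 at 15.2 FPKM. Neither was called in either mutant, but at so low a level AT3G54490 may not have been tested. Whether strand was used in counting is not given, so reads of these overlaps cannot be told apart.

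Taken over the family, the 4 LNK genes summed to 350.3 FPKM in hdp3-2 against 436.7 FPKM in wild type, or 80.2%. In asil1-2 they summed to 271.6 FPKM against 444.9 FPKM, or 61.0%. LNK3 made up 9.85% of the summed level in wild type, 4.46% in hdp3-2 and 5.43% in asil1-2. The share of LNK2 was 54.6% in wild type and 55.8% and 55.9% in the mutants, and that of LNK4 was 23.5%, 29.7% and 29.8%. These shares lie within 1 table each and do not depend on how the tables were scaled.

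**Figure D3:**
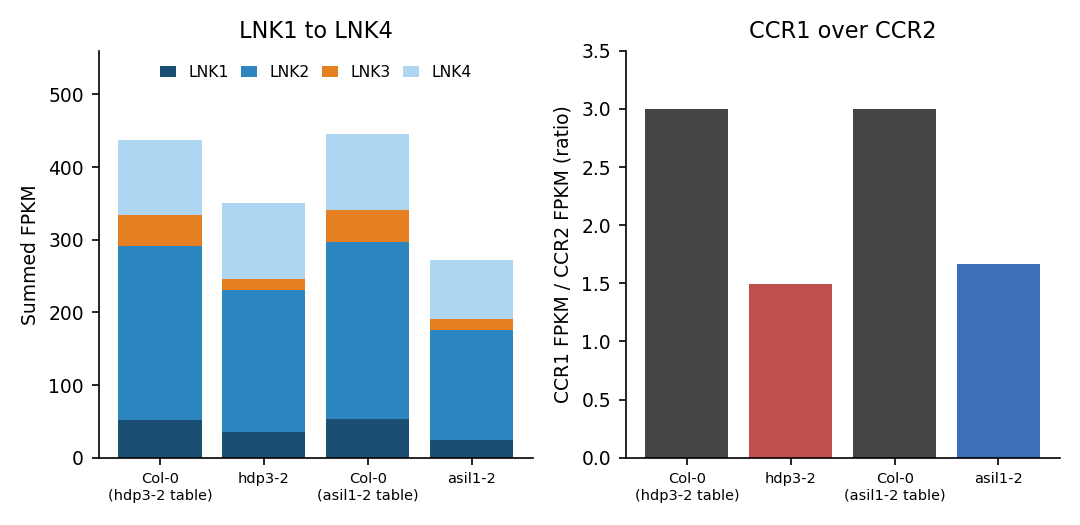
Left, FPKM of LNK1 to LNK4 stacked to their sum for wild type (Col-0) and mutant of each table, where the sum is 436.7 in wild type and 350.3 in hdp3-2, and 444.9 and 271.6 in the asil1-2 table. Right, the FPKM of CCR1 divided by that of CCR2 in the same 4 columns, which is 3.00 in wild type and 1.5 and 1.66 in the mutants, with no error bars because no values per library are held.

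CCR2 was the abundant output gene that rose in both mutants. The deposited values of CCR2 were 249.5 FPKM for Col-0 against 642.5 FPKM for hdp3-2, and in the second comparison 254.2 FPKM against 361.7 FPKM for asil1-2. The gene rose by 1.36 ± 0.29 in log2 in hdp3-2 (q = 0.00374), or 2.58-fold, and by 0.51 ± 0.24 in asil1-2 (q = 0.0369), or 1.42-fold. The call in asil1-2 was lost at a q under 0.01, under a 2-fold minimum and with the normal reading of the statistic, whereas that in hdp3-2 held under all of these. From rank 512 among all genes in wild type, CCR2 moved to rank 160 in hdp3-2 and to rank 292 in asil1-2, counted from the highest FPKM. CCR2 lies on chromosome 2 from 9265249 to 9266393, on the minus strand, and RefSeq annotates 2 transcripts of 2 to 3 exons. The tables give 1 value for the gene, so its splice forms were not analysed here.

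CCR1, the close relative whose RNA CCR2 is known to regulate, was not called in either mutant. CCR1 was the most abundant of the 8, at 962.2 FPKM in hdp3-2 against 748.3 FPKM in wild type (log2 fold change 0.36 ± 0.37, q = 0.656). In asil1-2 it stood at 602.1 FPKM against 762.3 FPKM (-0.34 ± 0.30, q = 0.384). The ratio of CCR1 to CCR2 was 3.00 in wild type, 1.5 in hdp3-2 and 1.66 in asil1-2. In hdp3-2 the sum of both genes was 1605 FPKM against 997.7 FPKM in wild type, whereas in asil1-2 it was 963.8 against 1017 FPKM. Their coding sequences are 78.6% identical over aligned bases, and the longest identical stretch is 39 bases. CCR1 lies on chromosome 4 from 18273899 to 18275079, on the minus strand.

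COR27 and COR28 were scarce in wild type and, without a pseudocount, had the most positive log2 fold changes of the 8. COR27 stood at 2.26 FPKM in hdp3-2 against 0.469 FPKM, and at 1.51 FPKM in asil1-2 against 0.478 FPKM. Its log2 fold change was 2.27 ± 0.78 in hdp3-2 (q = 0.0430), the call nearest to the threshold there, and 1.66 ± 0.78 in asil1-2 (q = 0.0843), which was not called. COR28 was at 4.24 FPKM in hdp3-2 against 1.28 FPKM, a rise of 1.73 ± 0.57 (q = 0.0132). In asil1-2 it was at 3.19 FPKM against 1.3 FPKM, a rise of 1.3 ± 0.55 (q = 0.0383). Both genes thus stood above wild type in both mutants, and their errors were wider than those of every LNK gene. None of these calls of COR27 and COR28 held at a q under 0.01 or with the normal reading of the statistic. At these low levels a pseudocount matters. On the log2(FPKM + 1) scale the values of COR27 were 1.15 in hdp3-2 and 0.76 in asil1-2. COR27 lies on chromosome 5 from 17197641 to 17199793 and COR28 on chromosome 4 from 16282696 to 16285059, both on the minus strand with 5 to 6 exons.

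**Figure D4:**
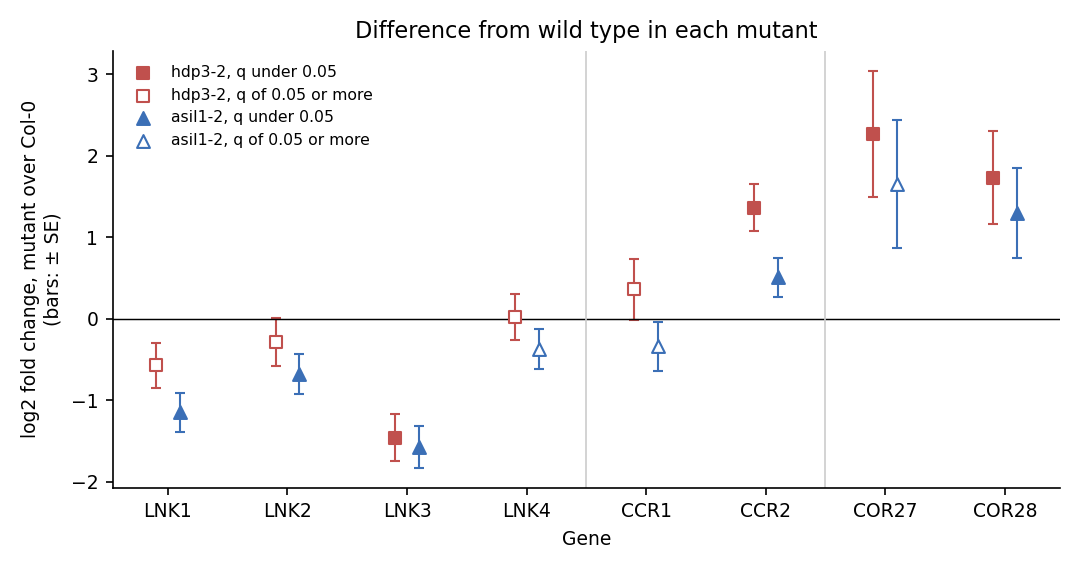
Log2 fold change of mutant over Col-0 for each gene, with bars of ± 1 SE derived from the authors' statistic; squares are hdp3-2, triangles asil1-2, and filled symbols have an authors' q under 0.05. LNK3 lies near -1.5 in both mutants, CCR2 at 1.36 and 0.51, and COR27 and COR28 have the widest bars.

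The mutants were then set beside each other. All 8 log2 fold changes were more positive in hdp3-2 than in asil1-2, by 0.11 to 0.86. The share of all tested genes with this direction was not taken, so nothing is read from that count. The difference was widest for CCR2, at 0.86 ± 0.37 (SE), and narrowest for LNK3, at 0.11 ± 0.39. It was 0.70 ± 0.48 for CCR1, 0.58 ± 0.37 for LNK1, and 0.39 for both LNK2 (SE 0.39) and LNK4 (SE 0.37). For COR27 and COR28 it was 0.61 ± 1.1 and 0.44 ± 0.79, less than their error. Apart from CCR2, at 2.29 SE, no difference exceeded 1.56 SE. Wild type is shared by both comparisons, so these errors count it in both, and no test was made of the differences. By level, the order was wild type, hdp3-2, asil1-2 for LNK1, LNK2 and LNK3, and hdp3-2, asil1-2, wild type for CCR2, COR27 and COR28. For LNK4 and CCR1 it was hdp3-2, wild type, asil1-2. The neighbours hdp3-2 and asil1-2 did not differ beyond 1 SE for LNK3, COR27 and COR28. Wild type and hdp3-2, also neighbours, did not for LNK2 (-0.29 ± 0.30), LNK4 (0.02 ± 0.28) and CCR1 (0.36 ± 0.37).

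Other clock genes were taken from 6 lists with 62 members, chosen with earlier results of these data known. In hdp3-2 the authors' test called 4 of 59 tested genes higher and 8 lower, and in asil1-2 it called 3 of 58 higher and 11 lower. The medians were 0.02 and -0.11. Over all tested genes, 1.3% were called higher and 1.78% lower in hdp3-2, with a median of -0.06. In asil1-2 these shares were 2.71% and 5.72%, with a median of -0.08. They are the background for the counts of each list below. Since the lists were chosen with earlier results known, nothing is read from the gap. Of the 10 dawn factors, MYB-like proteins that include the partners of the LNK coactivators, 4 fell in each mutant and 0 rose, with medians of -0.84 and -0.69. RVE8 (AT3G09600), which recruits LNK proteins, stood at 8.88 FPKM in hdp3-2 against 19.1 FPKM (-1.11 ± 0.33), and at 10.8 FPKM against 19.5 FPKM in asil1-2 (-0.86 ± 0.28). It was not among the 3 most changed of its list and was chosen after its values were seen. RVE4 (AT5G02840), the most abundant of the list in wild type, and RVE6 (AT5G52660) were not called in either mutant. These 2 were also chosen after their values were seen. RVE4 stood at 83.7 FPKM in hdp3-2 against 109.2 FPKM, and at 90.5 FPKM in asil1-2 against 111.2 FPKM. RVE1 (AT5G17300), a link from the clock to auxin, CCA1 (AT2G46830) and LHY (AT1G01060), the dawn repressors of evening genes, fell in both. In hdp3-2 their log2 fold changes were -1.22 ± 0.29, -0.94 ± 0.32 and -0.98 ± 0.30. In asil1-2 they were -1.36 ± 0.25, -1.34 ± 0.27 and -1.19 ± 0.27 in asil1-2.

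Among 13 PRR and evening genes, the group that holds known targets of LNK and RVE8, 3 rose and 1 fell in hdp3-2, and 2 rose and 1 fell in asil1-2. PRR5 (AT5G24470), a repressor of the afternoon, rose by 1.24 ± 0.30 and 0.76 ± 0.27. PRR9 (AT2G46790), which is expressed in the morning, had log2 fold changes of -0.83 ± 0.31 and -1.22 ± 0.28. The evening gene TOC1 (AT5G61380), chosen after its values were seen, had 0.53 ± 0.28 and 0.42 ± 0.25 and was not called. Of the photoperiod genes, the blue-light receptor gene FKF1 (AT1G68050) rose by 1.75 ± 0.49 and 1.42 ± 0.46, and CDF1 (AT5G62430), a repressor of flowering, had -1.1 ± 0.30 and -1.60 ± 0.26. In this list of 10 genes, 1 rose and 1 fell of 9 tested in hdp3-2, and 1 rose and 3 fell of 8 tested in asil1-2.

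The glycine-rich and cold-regulated relatives of the output genes showed no calls, but these lists are short. Over all tested genes, 1.3% were called higher and 1.78% lower in hdp3-2, and 2.71% and 5.72% in asil1-2. At these shares 0 calls are usual in so few genes, and nothing is read from them. Of 7 other glycine-rich RNA-binding protein genes, 0 were called in either mutant, and their log2 fold changes ran from -0.26 to 0.41 in hdp3-2 and from -0.49 to 0.29 in asil1-2. Of the 9 tested cold-regulated genes other than COR27 and COR28, 0 were called, with ranges of -0.67 to 0.93 and -0.27 to 1.37. COR47 (AT1G20440), a dehydrin gene and the most abundant of them, likewise chosen after its values were seen, was at 440.0 FPKM in hdp3-2 against 501.7 FPKM, and at 476.0 FPKM in asil1-2 against 511.1 FPKM. Of 11 other rhythmic genes, 0 rose, and 2 and 3 fell. BBX18 (AT2G21320) and BBX19 (AT4G38960), B-box regulators of light and flowering responses, had -1.85 ± 0.39 and -1.34 ± 0.39 in hdp3-2 and -1.95 ± 0.37 and -1.33 ± 0.35 in asil1-2. Stress genes also moved in these tables: 5 of 6 heat response genes rose in hdp3-2 and 4 in asil1-2, and 2 and 5 of 7 touch genes rose, with 1 lower in hdp3-2. Their part in the values of the LNK, CCR and COR genes was not tested.

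**Figure D5:**
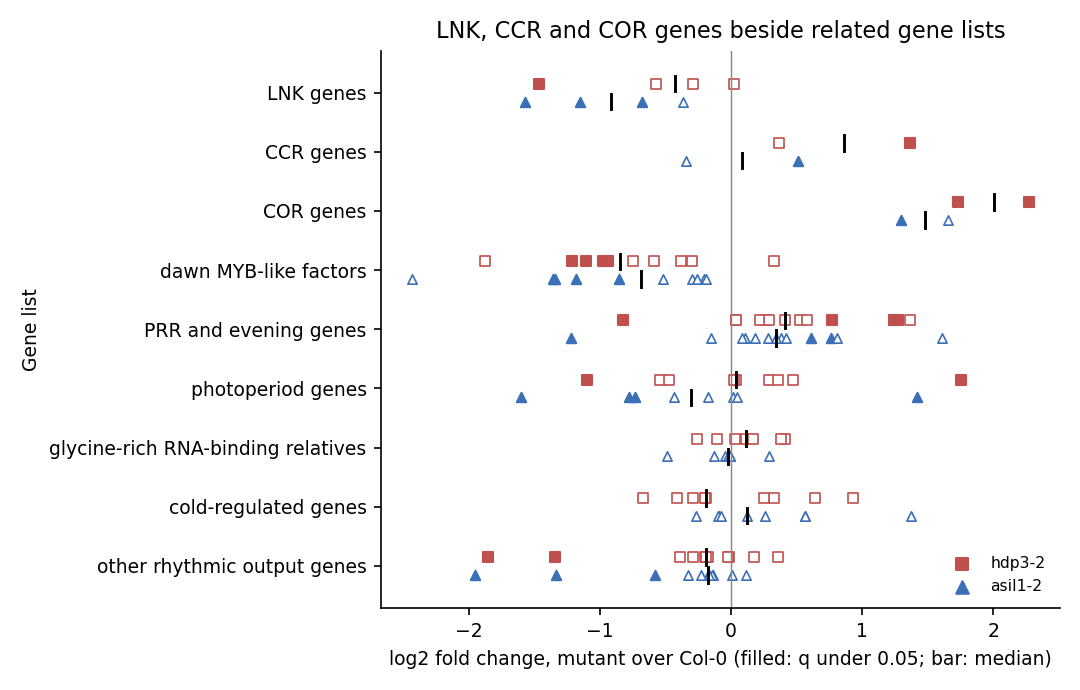
Log2 fold change of mutant over Col-0 (horizontal axis) for each tested gene of the LNK, CCR and COR groups and of 6 related lists; squares are hdp3-2, triangles asil1-2, filled symbols have an authors' q under 0.05, and black bars are medians. LNK genes and dawn factors have medians under 0 in both mutants, COR genes above 1, and the glycine-rich and cold-regulated lists have no filled symbols.

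The genes whose pair of fold changes lay nearest to those of 3 members were looked up among 11020 genes with at least 10 FPKM in wild type. Distance was Euclidean over the 2 comparisons, which share wild type. Nearest to LNK3 were AT4G12980 (distance 0.11 in log2 units), the cytochrome P450 gene AT3G28740, which the tables name CYP81D1 and RefSeq CYP81D11 (0.14), and the expansin gene EXPA8 (AT2G40610, 0.15). Nearest to CCR2 were AT2G16586 (0.11), the branched-chain transaminase gene BCAT-2 (AT1G10070, 0.14) and AT2G05510 (0.15). For COR27, itself under that minimum, the nearest were ERD5 (AT3G30775, 0.47), a proline dehydrogenase gene, AT1G15125 (0.60) and AT5G62360 (0.65). With 2 values per gene such likeness says little, and nothing of shared control.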

How the data were processed

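RNA sequencing of 4 libraries, 2 per mutant, is held as 2 tables, 1 per mutant against Col-0. Per the submitters' processing notes, TopHat2, Cufflinks, Cuffdiff and deepTools were used with the build TAIR10, and no versions or options are given in the sources used here. Per the file headers, the FPKM values are the authors' Cuffdiff values, 1 per genotype and scaled within each table. The deposited score is the authors' Cuffdiff statistic. The deposited p-value and q-value columns are theirs, and the smallest p is 5e-05, reached by 270 genes in the hdp3-2 table and 613 in the other. No counts are held. Sequencing depth is therefore unknown, and libraries could not be tested against each other. No text of the tables' damaged fold column was used.

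Log2 fold changes were computed from FPKM, and the SE is the fold change divided by the statistic. The z that the authors' p implies exceeded the statistic by a median factor of 1.41 (hdp3-2) and 1.42 (asil1-2), over genes whose statistic had a size of 0.3 to 3, so these SEs are mostly wider than the p-values imply. The Benjamini-Hochberg adjustment, used here only in alternatives, was tested on simulated data. The members, the lists and the rules were chosen with earlier results of these data known. Named genes were the 8 members, up to 3 genes per list called in both tables with the largest mean change, the 3 nearest genes for LNK3, CCR2 and COR27, the overlapping genes, and ASIL1. Alternatives were other thresholds, filters, pseudocounts, centring, a longer promoter window and another gene start. Nuclear positions of the tables lie within the chromosome lengths of TAIR10.1, and 32809 of 33278 nuclear loci have an entry there. Of these, 29298 (89.3%) lie within 1000 bases of that entry at both ends, and only 12793 start at the same base. Some of the tables' windows, also among all genes, are therefore not at an annotated gene start. Sequences were read from TAIR10.1, by the tables' starts and by the RefSeq starts. The software was matplotlib 3.10.9, SciPy 1.17.1, NumPy 2.4.6 and pandas 2.3.3 under Python 3.11.15. The promoter window of COR27 is not reported here.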

Additional observations from a re-analysis of the deposited data

How the results depend on the processing

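LNK3 stayed called lower in both mutants under every threshold, filter and reading tried. At a q under 0.01, 1 gene (CCR2) was called higher in hdp3-2 and 0 in asil1-2. With a normal reading of the statistic the counts were again 1 and 0, and 2 genes (LNK1 and LNK3) were called lower in asil1-2, as they were with a 2-fold minimum, so that LNK2 was lost. With FPKM of at least 10 in the higher genotype, 1 was called higher in each mutant (CCR2), and with a 2-fold minimum 1 in asil1-2 (COR28). Leaving out LNK1 and LNK2, which overlap other genes, left 1 called lower in asil1-2. That last choice moved the median of the members to 0.86 in hdp3-2 and turned it to 0.0843 in asil1-2, since it removes lower genes, and the FPKM minimum turned it to -0.13 in hdp3-2, since it removes the COR genes. Of 56 recomputed values of single genes, 54 moved by less than their SE, 2 moved by more (COR27 with a pseudocount of 1) and 0 called values changed sign. Most of these outcomes were fixed in advance. Centring shifts every gene of a table by 1 constant, which is smaller than the SE of every member. Putting the tables on 1 scale returns nearly the same difference by construction. Only the pseudocount could move a value, so the count is no measure of robustness. In windows of 1000 bases before the tables' start, a length chosen after seeing the data, the evening element core was in 3 of the 7 genes (16.1% of all windows), the G-box in 6 (16.7%), CCGAC in 4 (40.4%), the CCA1 site in 2 (22.8%), GTGATT in 3 (52.6%) and GAANNTTC in 2 (35.2%). The RefSeq start was also chosen as an alternative after seeing the data. No paired analysis was possible because the tables hold no values per library, and for the same reason no replicate could be left out. The low FPKM of COR27 and COR28 limits their precision.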
